A study of Mus musculus with 23 samples.

Results

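The cells described here came from brains of unmodified C57BL/6 mice that had received a fluorescently labelled antibody with no brain receptor as its target. The cells were sorted by the fluorescence of its dye. They comprised the low-fluorescence libraries of pools 1 and 2 and the negative library of pool 2, the only negative library of this treatment used here. Barcodes with at least 500 genes, at least 800 UMIs (unique molecular identifiers, each counting 1 captured RNA molecule) and at most 10% mitochondrial UMIs were members, which gave 18283 of 249715 barcodes in the series. The low libraries contributed 2247 and 3869 members and the negative library 12167.

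Each pool held dissociated cells of 1 male and 1 female mouse, given as 3.3 months old in the sample labels and as 12 weeks old in the series design. The mice had been injected intravenously with 45 mg/kg of control IgG, a human IgG1 carrying the LALAPG changes and the dye Alexa Fluor 647 (AF647), and were perfused 24 h later. Brains without olfactory bulbs, cerebellum, pons and medulla were dissociated in the presence of 5 uM actinomycin D and 2 uM anisomycin, which block transcription and translation during the digestion. In the other arms, TfR mu/hu KI mice received ATV-TfR and CD98hc mu/hu KI mice received ATV-CD98hc, both AF647-labelled antibody transport vehicles at the same dose and time, so that treatment and genotype changed together. The submitters reported about 1% of live cells as AF647-positive after control IgG, against about 30% and 20% in the ATV-TfR and ATV-CD98hc arms. The low, medium and high gates were set on tertiles of positive cells of the ATV-TfR arm and used for all arms, so the low bin of control IgG holds dim cells from a small positive fraction. No library of an undosed mouse was among the samples, so the part of antibody in a dim signal was not tested. Bins of 1 pool share its animals.

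As background, an IgG in the blood reaches few cells of the brain parenchyma, because brain endothelial cells are joined by tight junctions and take up little fluid. The borders of the brain are more open: the choroid plexus, the dura and the walls of larger vessels hold leaky capillaries, fibroblasts and resident macrophages that clear plasma proteins. Cells bind the Fc end of IgG through Fc gamma receptors on the surface, whose binding the LALAPG changes reduce, and through the neonatal Fc receptor FcRn in endosomes, which returns IgG from the path to the lysosome.

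Doublet calls (45, 5 and 912 barcodes in low 1, low 2 and negative 2) made up 2.00%, 0.129% and 7.50% of members, so removal was uneven between libraries. After it, 2202, 3864 and 11255 cells were kept. Their median depth was 4539, 4984 and 4460 UMIs, and the libraries held 11873299, 21078180 and 64551064 UMIs in all barcodes. Of the kept cells, 2 barcode sequences were shared between the low libraries, and 10 and 9 between the negative library and low 1 and low 2. Clusters of all 23 libraries were named from marker lists, and 15 classes were called "-like" by markers detected above a set level; 1.23% of the cells of these 3 libraries stayed in unnamed clusters. The labelled tissue was borne out by defining markers of endothelial, astrocyte, microglial and choroid plexus cells. All shares below are shares of kept cells, which sum to 100% in a library. The p-values measure only the spread between libraries, taken from other groups too because the negative bin had 1 library. For cell numbers per class this spread came from all 12 groups, and for the fine clusters below from the 7 control IgG libraries. For expression it came only from libraries with at least 20 cells of the class.

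The dim cells were mainly vascular and border cells, and parenchymal glia were nearly missing from them. Endothelial-like cells made up 46.5% of low 1 and 58.5% of low 2, against 21.3% of the negative library (exact 95% interval 20.6% to 22.1%, counting error only). Choroid plexus epithelial-like cells, which make cerebrospinal fluid, held 17.3% and 11.6% against 1.28%. Fibroblast-like cells held 12.2% and 8.70% against 0.675%. In all 3 classes both low libraries lay above the negative library. Border macrophage-like cells, the phagocytes of meninges, perivascular spaces and choroid plexus, held 10.6% and 9.81% against 0.373%. These 4 classes together held most cells of each low library.

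**Figure D1:**
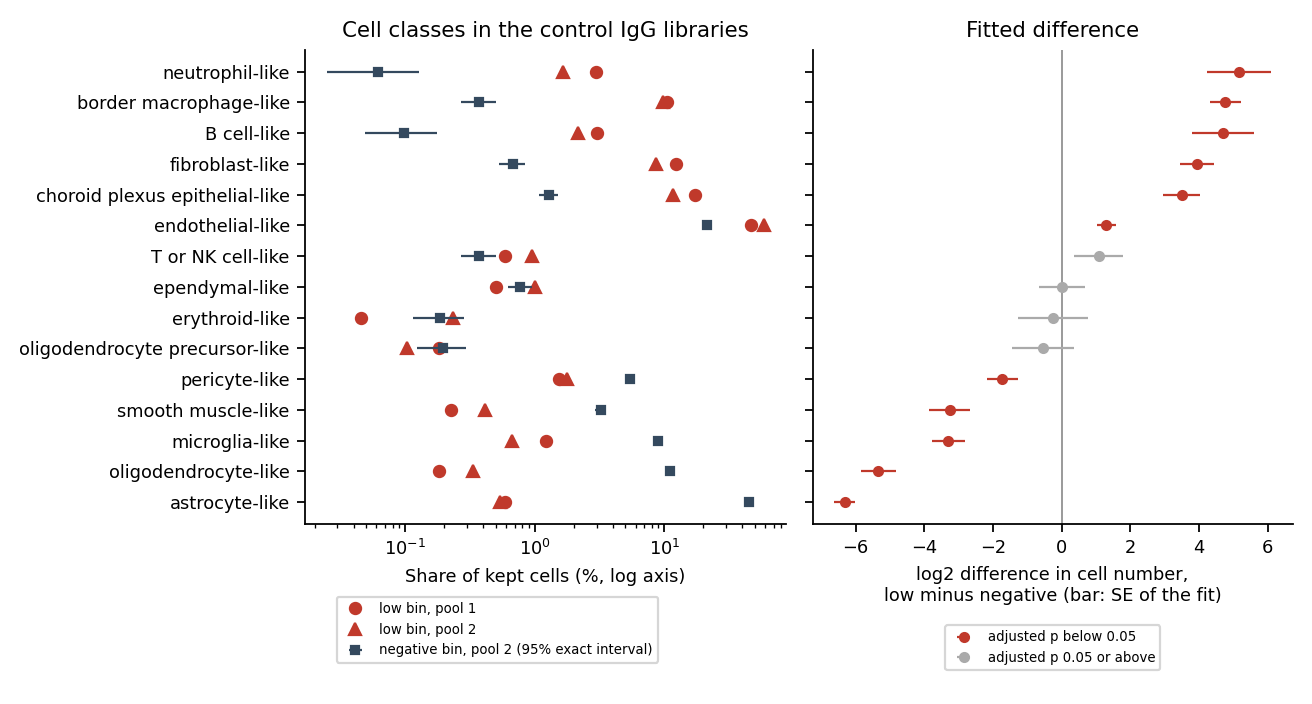
Left, share of kept cells (%, log axis) of each named class in the 2 control IgG low libraries (red) and the negative library (dark, with its exact 95% interval). Right, fitted log2 difference in cell number, low minus negative, with its SE. Red points lie to the right of the dark square for the 6 classes called higher, with endothelial-like cells at 46.5% and 58.5% against 21.3%, and to the left for the 5 called lower.

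In the edgeR quasi-likelihood fit of cell numbers, 11 of the 15 classes differed between low and negative bins (73.3%) at a Benjamini-Hochberg adjusted p below 0.05, 6 higher (40.0%) and 5 lower (33.3%). Border macrophage-like cells were 27.3-fold higher by share (log2 difference 4.77, SE 0.45, adjusted p = 8.7e-13). Fibroblast-like cells were 15.5-fold higher (3.95, SE 0.49, adjusted p = 1.1e-09) and choroid plexus epithelial-like cells 11.3-fold higher (3.50, SE 0.53, adjusted p = 1.1e-07). Endothelial-like cells, the most numerous class of the low bin, were 2.46-fold higher (1.30, SE 0.27, adjusted p = 3.2e-05).

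Classes named from markers of blood leukocytes were also more frequent among the dim cells. Neutrophil-like cells counted 65 and 64 against 7 in the larger negative library (2.30% ± 0.92, SD, n = 2, against 0.0622%; log2 difference 5.17, SE 0.93, adjusted p = 3.5e-06). B cell-like cells counted 66 and 83 against 11 (2.57% ± 0.60, SD, n = 2, against 0.0977%; 4.69, SE 0.91, adjusted p = 8.8e-06). The B cell-like cluster, led by Igkc and Cd79a, also had Lyz2 and Plac8, genes of monocytes, among its leading genes, and Fcer1g, an Fc receptor chain of myeloid cells, stood at 1578 and 1283 CPM (UMIs scaled to the summed depth of the class in the library) in it. In the finer clustering of control IgG libraries, an unnamed cluster led by Igkc and Cd79a held 45 and 61 against 22 cells. It stayed unnamed because T or NK cell markers averaged 0.9 of their highest level in it, beside B cell markers at 1.0. Its difference did not pass (3.18, SE 1.03, edgeR adjusted p = 0.054) except with the pool as a block (3.05, adjusted p = 0.00094). The B cell-like class thus also held monocyte genes and the finer cluster T or NK cell genes, so neither tests B cells alone. T or NK cell-like cells did not pass (13 and 37 against 42; 1.08, SE 0.71, adjusted p = 0.17), but did pass when endothelial-like cells were left out of the denominator (1.87, adjusted p = 0.015). Endothelial markers averaged 0.457 of their highest level in this cluster, beside 0.9 for T or NK cell markers. Tfrc, high in endothelium, stood at 337 and 324 CPM against 381 CPM in it, so the class does not test T or NK cells alone.

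Astrocyte-like cells had the largest fall of the 15 classes, with 13 and 21 cells against 5057, or 0.590% and 0.543% against 44.9% (79.3-fold lower; log2 difference -6.32, SE 0.30, adjusted p = 2.0e-23). Oligodendrocyte-like cells, which make myelin, counted 4 and 13 against 1250 (-5.33, SE 0.51, adjusted p = 8.7e-13). Microglia-like cells, the phagocytes of the parenchyma, counted 27 and 26 against 1012 (1.23% and 0.673% against 8.99%; -3.29, SE 0.47, adjusted p = 4.2e-08). Macrophages inside and outside the parenchyma thus lay on opposite sides of the comparison. The mural cells that wrap the same vessels were lower too. Smooth muscle-like cells counted 5 and 16 against 363 (-3.26, SE 0.60, adjusted p = 4.2e-06) and pericyte-like cells 34 and 68 against 617 (-1.72, SE 0.45, adjusted p = 5.8e-04). The pericyte-like call was lost when male cells were used alone (-0.98, adjusted p = 0.087). In the finer clustering of control IgG libraries, the pericyte-like cluster (35 and 69 against 631) did not pass (-1.73, SE 0.94, adjusted p = 0.17) except with the pool as a block (-1.52, adjusted p = 0.013). The smooth muscle-like cluster there (2 and 16 against 352) passed (-3.55, SE 1.12, adjusted p = 0.041), a call lost without low 1 (0.23) and without low 2 (0.080). Ependymal-, erythroid- and oligodendrocyte precursor-like cells did not pass, with adjusted p of 0.99, 0.87 and 0.64. With the pool as a replicate block, which pairs bins of the same animals, and without either low library, the count stayed at 11 classes.

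In the medium and high bins of control IgG, endothelial-like cells stood at 4.38% ± 0.99 and 2.01% ± 0.11 (SD, n = 2), against 52.5% ± 8.5 in the low bin. Border macrophage-like cells stood at 10.2% ± 0.55, 30.7% ± 0.44 and 74.9% ± 4.7 (SD, n = 2) in the low, medium and high bins. These are values, and no test between these bins was made.

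The step from negative to low differed between control IgG and the transport vehicles. Astrocyte-like cells made up 87.1% ± 3.0 of the ATV-TfR low bin and 68.6% ± 3.3 of the ATV-CD98hc low bin (SD, n = 2). The low minus negative difference of this class in control IgG, less that in the vehicle arm, was -8.13 on the log2 scale (SE 0.37, adjusted p = 3.7e-24) for ATV-TfR and -6.63 (SE 0.37, adjusted p = 7.2e-21) for ATV-CD98hc, so it was lower in control IgG in each case. Across classes, 9 of 15 (60.0%) differed from ATV-TfR and 10 of 15 (66.7%) from ATV-CD98hc, 7 of them with a higher value in control IgG in each case (46.7%). For border macrophage-, fibroblast- and choroid plexus epithelial-like cells the low minus negative difference was higher in control IgG than in either vehicle, by 3.18 to 5.75 (largest adjusted p = 1.5e-05). For endothelial-like cells it was higher than in ATV-TfR (0.85, SE 0.35, adjusted p = 0.031) and lower than in ATV-CD98hc (-1.76, SE 0.34, adjusted p = 1.5e-05). The difference from ATV-TfR was lost without low 2 (0.68, adjusted p = 0.13). Pericyte-like cells fell less in control IgG than in ATV-TfR (2.42, SE 0.62, adjusted p = 0.0010) and ATV-CD98hc (1.65, SE 0.61, adjusted p = 0.019); the latter call was lost without low 2 (1.55, adjusted p = 0.052).

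Clustering of the 7 control IgG libraries alone gave 32 fine clusters, of which 15 differed in cell number (46.9%), 10 higher (31.2%) and 5 lower (15.6%) in the low bin. With the pool as a block 20 of the 32 differed, 13 of them higher. With 7 libraries that fit left few to measure spread, so its p-values rest mainly on spread shared across clusters. The block values of fine clusters given above have the same limit. Since fine clusters are defined by genes that themselves differed between bins, a larger cluster and a change of genes within cells cannot be told apart by these counts. A venous endothelial-like cluster, where 10 of 10 venous markers were at their highest among endothelial-like clusters, held 187 and 292 cells in the low libraries and 22 in the negative library (log2 difference 5.33, SE 0.73, adjusted p = 0.0036). A neighbouring endothelial-like cluster (5 in the plot), with venous markers at 0.331 of their highest level on average, held 398 and 755 against 159 (3.73, SE 0.76, adjusted p = 0.0073). The arterial cluster, where 9 of 10 arterial markers were highest, held 26 and 45 against 299 (-1.18, SE 0.63, adjusted p = 0.16). Among the endothelial-like cells alone, the venous cluster made up 18.0% and 12.6% in low 1 and low 2 against 0.871%, and the arterial cluster 2.50% and 1.94% against 11.8%. The low libraries thus lay above the negative library for the former and below it for the latter.

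**Figure D2:**
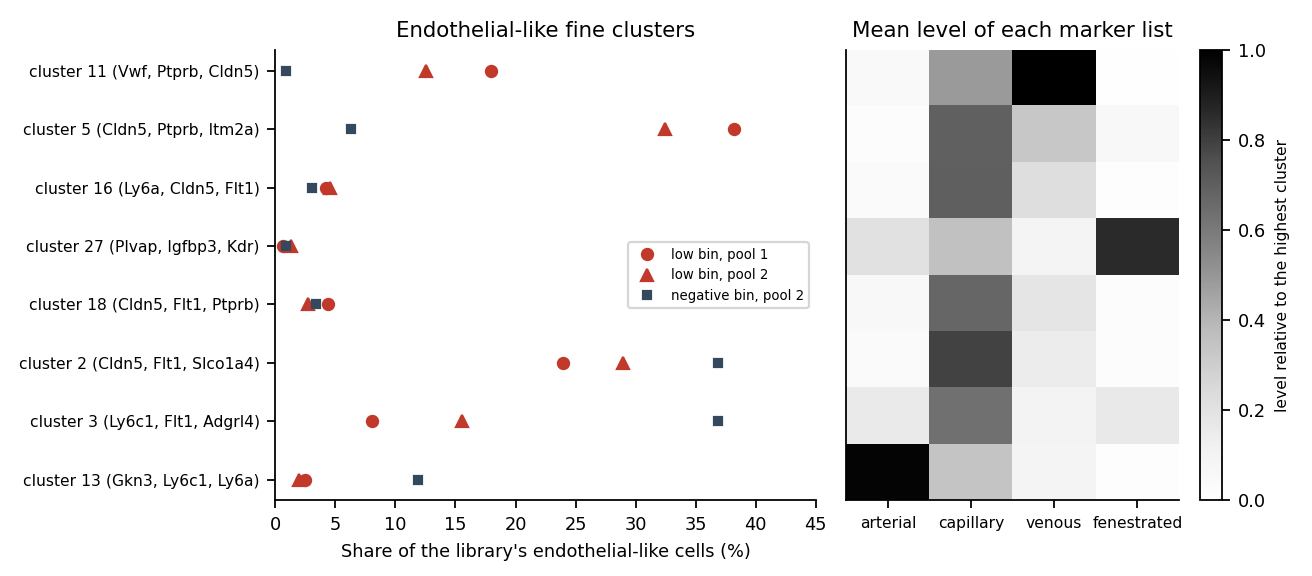
Left, share (%) of each library's endothelial-like cells in the 8 endothelial-like fine clusters, red for the 2 low libraries and dark for the negative library. Right, mean level of 4 marker lists in each cluster, relative to the endothelial-like cluster where each gene is highest. The venous cluster (11) held 18.0% and 12.6% in the low libraries against 0.871%, and the arterial cluster (13) 2.50% and 1.94% against 11.8%.

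Outside the endothelium, fibroblasts divided more sharply. A fibroblast-like cluster led by Dcn, Coch, Cemip and Lum held 253 and 323 cells in the low libraries and 4 in the negative library (log2 difference 7.96, SE 0.50, adjusted p = 1.1e-04). A second fibroblast-like cluster led by Slc6a13, Spp1 and Lama1 held 16 and 12 against 71 (-0.30, SE 1.15, adjusted p = 0.83). Most fibroblast-like cells of the low bin thus came from a cluster with few negative cells. Border macrophage-like cells with Mrc1, Cd163 and Lyve1 held 137 and 155 against 10 (5.78, SE 0.89, adjusted p = 0.0036). An unnamed cluster led by MHC class II genes together with Ms4a7 and Mrc1 held 79 and 176 against 16 (4.80, SE 0.38, adjusted p = 1.5e-04). Monocyte or dendritic cell-like cells held 41 and 61 against 14 (3.74, SE 0.80, adjusted p = 0.0077). The neutrophil-like fine cluster held 64 and 56 cells against 0, where the class from the clustering of all libraries had 65 and 64 against 7, so the negative count depended on the clustering. Choroid plexus epithelial-like cells formed 2 clusters, 1 with 281 and 394 against 136 cells (3.24, SE 0.61, adjusted p = 0.0055) and 1 rich in Htr2c with 100 and 54 against 2 (adjusted p = 0.0036). Fenestrated endothelial-like cells with Plvap, which mark leaky capillaries, held 7 and 30 against 22 and did not pass (1.49, SE 1.17, adjusted p = 0.31).

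Within the endothelial-like class, the dim cells had more RNA of venous and less RNA of arterial genes. UMIs were summed per library and tested by edgeR's quasi-likelihood fit, and 658 of 15395 genes differed (4.27%), 90 higher (0.585%) and 568 lower (3.69%) in the low bin. The higher calls came to 34 without low 1, 81 without low 2 and 265 with the replicate block. Most of the lower genes were not endothelial: 198 had their highest level in astrocyte-like, 88 in oligodendrocyte-like, 78 in oligodendrocyte precursor-like and 67 in microglia-like cells. The 10 astrocyte markers summed to 273 and 376 CPM in endothelial-like cells of low 1 and low 2 and to 800 CPM in the negative library, none at 0, and the part of other cells' RNA in the calls was not tested. Slc1a2, the astrocytic glutamate carrier, stood at 3.97 and 2.53 CPM against 141 CPM there (log2 difference -5.49, adjusted p = 5.7e-08). Among 5431 genes tested that were at home in the class, meaning that its level was at least 0.5 of the highest class, 36 were higher and 22 lower.

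Of 10 venous genes, 9 were higher and 0 lower, with a median log2 difference of 1.94 against -0.01 over all genes tested. Members of the venous, arterial and capillary lists were chosen with earlier results of these data known, so counts over these lists are descriptive. Vwf (ENSMUSG00000001930, GRCm38 chromosome 6, 125546774 to 125686679), the von Willebrand factor of platelet adhesion, stood at 510 and 378 CPM against 112 CPM (2.03, SE 0.39, adjusted p = 0.0018). Vcam1 (ENSMUSG00000027962, chromosome 3, 116109949 to 116129688), an adhesion molecule for leukocytes, stood at 138 and 88.5 CPM against 10.9 CPM (3.42, SE 0.57, adjusted p = 3.8e-04). Il1r1, the interleukin-1 receptor, stood at 217 and 191 CPM against 42.3 CPM (2.32, SE 0.36, adjusted p = 1.7e-04). In all 3 genes both low libraries lay above the negative library. Nr2f2, the transcription factor of vein identity, rose by 1.85 (SE 0.26, adjusted p = 5.4e-05). Icam1 rose by 1.64 (adjusted p = 0.035), Slc38a5, a glutamine carrier, by 1.56 (0.039) and Ctsc, a lysosomal protease, by 1.22 (0.014), and these 3 calls were lost without low 1. The calls of Icam1 (adjusted p = 0.52) and Slc38a5 (0.11) were lost in DESeq2 too. Ackr1, a chemokine receptor of venules, had 14 and 44 UMIs against 0, or at least 10.2-fold more with the negative library set at 3 UMIs. Its call was lost without either low library and in DESeq2 (adjusted p = 0.057). Lcn2 stood at 25.4 and 11.2 CPM against 1.45 CPM, but its highest level was in neutrophil-like cells, whose marker S100a8 also rose here (11 and 24 UMIs against 0, at least 6.65-fold), and the part of neutrophil RNA was not tested. The S100a8 call (adjusted p = 0.043) was lost without low 1 (0.088), without low 2 (0.094) and in DESeq2 (0.057), and the Lcn2 call in DESeq2 (0.091). Vcam1 and Nr2f2, and the arterial genes Alpl, Mgp and Fbln5 below, had their highest level in fibroblast-like cells, whose 10 markers summed to 40.1 and 24.1 CPM in endothelial-like cells of the low libraries and 63.9 CPM in those of the negative library.

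**Figure D3:**
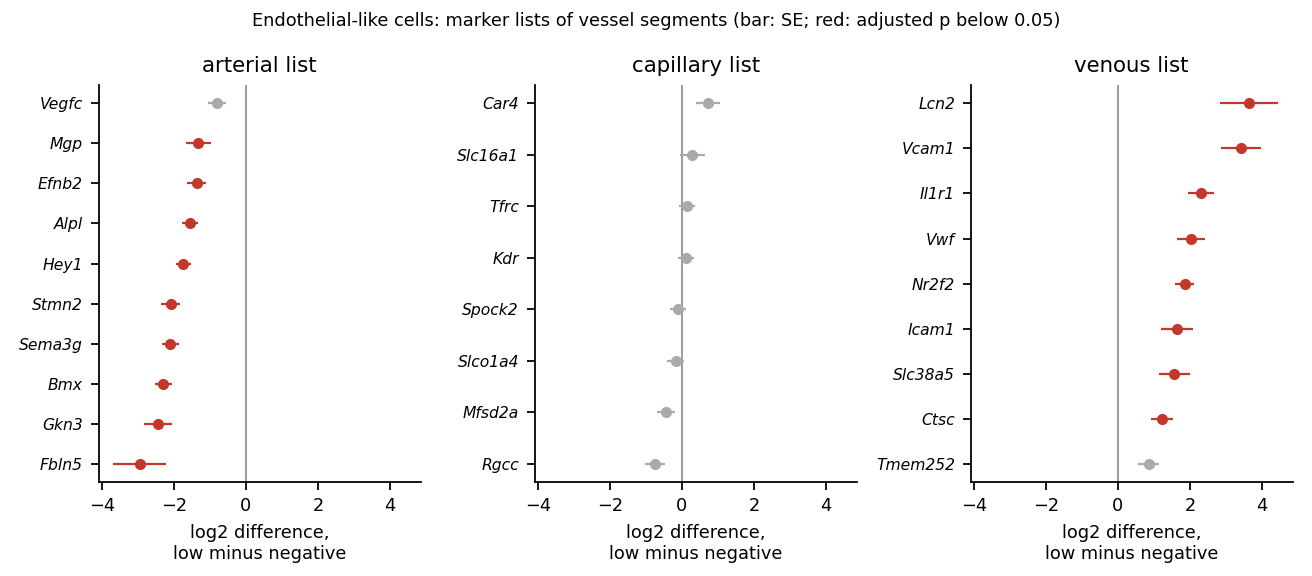
Log2 difference between low and negative bins (low minus negative, bar: SE) in endothelial-like cells for genes of the arterial, capillary and venous lists, red where the adjusted p is below 0.05. Arterial genes lie to the left (Gkn3 at -2.44), venous genes to the right (Vwf at 2.03) and capillary genes around 0; Ackr1, with 0 UMIs in the negative library, is not drawn.

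Of 10 arterial genes, 9 were lower and 0 higher, with a median of -1.91. Gkn3 (ENSMUSG00000030048, chromosome 6, 87383256 to 87388935), a secreted protein of brain arteries, stood at 28.2 and 15.3 CPM against 119 CPM (-2.44, SE 0.39, adjusted p = 2.4e-04). Bmx (ENSMUSG00000031377, chromosome X, 164192842 to 164258193), a tyrosine kinase of arterial endothelium, stood at 9.48 and 9.97 CPM against 49.3 CPM (-2.29, SE 0.24, adjusted p = 1.2e-06). Sema3g, a secreted semaphorin, stood at 11.5 and 18.8 CPM against 69.0 CPM (-2.10, SE 0.23, adjusted p = 3.2e-06). Both low libraries lay below the negative library for each of them. The Notch target Hey1 (-1.73), the ephrin ligand Efnb2 (-1.37), Alpl (-1.56), Stmn2 (-2.09), Mgp (-1.32) and Fbln5 (-2.95) were lower as well (adjusted p 1.4e-05 to 0.023). The Mgp call was lost without low 2 and the Fbln5 call without either low library. Of 8 capillary genes 0 passed, with a median of -0.00. Male and female cells could be set side by side in pool 2, where each sex is 1 animal. Vwf stood at 426 CPM in female and 337 CPM in male cells of low 2 against 118 and 112 CPM in the negative library, and Bmx at 9.78 and 10.4 CPM against 52.3 and 56.4 CPM. Each sex thus lay on the same side for both genes.

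By the rule for naming genes, the other endothelial genes that rose most were Hs3st1, Nrp2, Myof, Flrt2, Csf1, Tgm2 and Slc52a3, with log2 differences of 0.95 to 1.51. Nrp2, a co-receptor for semaphorins and VEGF found on veins, stood at 134 and 147 CPM against 51.4 CPM (1.50, SE 0.26, adjusted p = 5.1e-04). Without low 1 the calls of Hs3st1, Flrt2, Csf1, Tgm2 and Slc52a3 were lost, and without low 2 that of Flrt2. In DESeq2 the Flrt2 call was lost as well (adjusted p = 0.12). The other genes that fell most were Alox12, Slc26a10, Rad54b, Cxcl12 and Rsad2. Cxcl12, a chemokine made by arterial endothelium, stood at 747 and 1183 CPM against 2590 CPM (-1.38, SE 0.30, adjusted p = 0.0053), and its call and that of Rsad2 (-1.12, adjusted p = 0.0077) were lost without low 1.

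The endothelial-like cluster with most cells of these libraries in the 23-library clustering, led by Vwf, Ptprb and Cldn5, held 47.1% and 43.6% of the endothelial-like cells of low 1 and low 2 and 6.75% of those of the negative library (162 cells). Since Vwf itself leads this cluster, its size and the level of venous genes in the class cannot be told apart. Within it, 33 genes passed, 0 of them higher in the low bin. There Vwf differed by 1.01 (adjusted p = 0.34), Vcam1 by 1.91 (0.11), Il1r1 by 0.37 (0.96) and Nr2f2 by 0.49 (0.96), and Gkn3 (0.52), Efnb2 (0.36), Stmn2 (0.61) and Mgp (1.37) changed sign without passing. None of Hey1 (-2.11, SE 0.76, adjusted p = 0.72), Lrp1 (-1.92, SE 1.17, 0.96), Icam1 (1.42, SE 0.42, 0.34), Csf1 (1.04, SE 0.31, 0.34) and Rsad2 (-1.03, SE 0.32, 0.39) passed there either. Their fitted differences lay near those of the whole class, with wide errors for Hey1 and Lrp1. Of 34 named genes called in the class and tested there, 1 passed, the astrocytic Slc1a2. With the replicate block, 1034 genes passed in the whole class.

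The receptors bound by the transport vehicles and the heavy chain of FcRn did not pass the test between dim and negative endothelial-like cells. Tfrc, the transferrin receptor, stood at 506 and 615 CPM against 524 CPM (log2 difference 0.15, SE 0.23, adjusted p = 0.95), with the negative library between the low ones. Slc3a2, the CD98 heavy chain, stood at 602 and 531 CPM against 473 CPM (0.31, SE 0.25, adjusted p = 0.82). Fcgrt, the heavy chain of FcRn, stood at 648 and 508 CPM against 475 CPM (0.33, SE 0.29, adjusted p = 0.85). Of the uptake and barrier lists, 0 of 9 caveolar, 0 of 12 clathrin or macropinocytosis, 0 of 9 tight junction and 0 of 3 FcRn-related genes tested passed, against 4.27% of all genes, a share at which lists this short would hold few calls or none. Among 11 other candidate shuttle receptors, Lrp1, whose level was far higher in astrocyte-like (334 CPM), microglia-like (470 CPM) and fibroblast-like (884 CPM) cells of the negative library, was lower (3.53 and 2.37 CPM against 8.37 CPM, -1.55, adjusted p = 0.049), a call lost without either low library but kept with the replicate block (-1.79, adjusted p = 7.2e-05), and the part of RNA from those cells was not tested. Of 12 endothelial identity genes 0 passed, and Cldn5, the main claudin of the barrier, stood at 9523 and 8540 CPM against 7083 CPM (0.40, adjusted p = 0.73). A p that misses the threshold does not show that levels were alike.

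The same genes were then tested for a difference between treatments, a comparison added after the values were seen. From negative to low, control IgG differed from ATV-TfR in 538 of 15395 genes (3.49%; 0.630% higher, 2.86% lower) and from ATV-CD98hc in 311 (2.02%; 0.260% higher, 1.76% lower). Of the 10 venous genes, the low minus negative difference was higher in control IgG than in ATV-TfR for 6 and than in ATV-CD98hc for 3. For Vwf the excess was 2.50 (SE 0.50, edgeR adjusted p = 0.0031) against ATV-TfR and 3.01 (SE 0.53, 0.0015) against ATV-CD98hc, for Vcam1 3.46 (0.0037) and 4.79 (6.6e-04) and for Il1r1 3.04 (5.9e-04) and 3.10 (0.015). Of the 10 arterial genes it was lower for 9 and 2, with Bmx at -2.58 (adjusted p = 1.7e-05) and -1.27 (adjusted p = 0.044), the latter call lost without either low library. Of the 8 capillary genes 2 were higher than in ATV-TfR, Car4, a carbonic anhydrase (1.94, SE 0.45, adjusted p = 0.012), and Kdr, a VEGF receptor (1.30, SE 0.28, adjusted p = 0.0069), and 0 passed against ATV-CD98hc. The negative bins of the vehicles held few endothelial-like cells, 101 and 66 for ATV-TfR and 72 and 54 for ATV-CD98hc. With the replicate block, 847 and 493 genes passed, and without low 2, 197 against ATV-CD98hc.

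**Figure D4:**
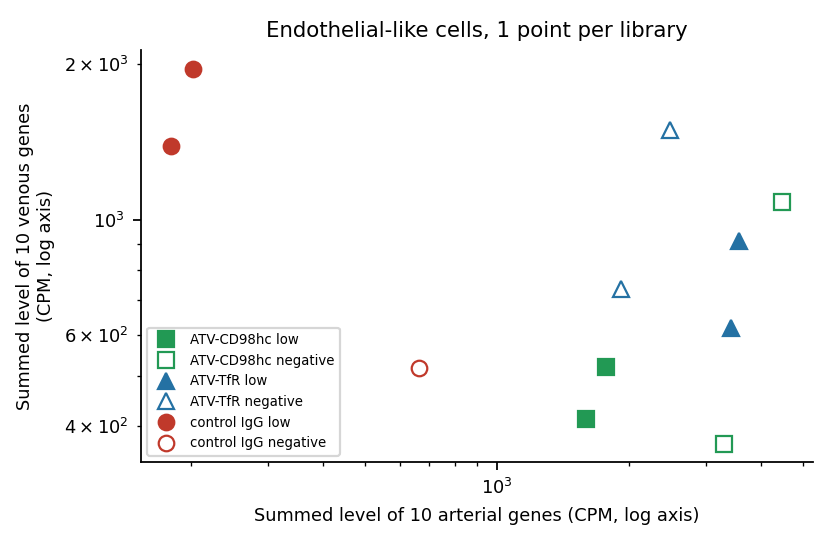
Summed level of 10 venous genes against that of 10 arterial genes (CPM, both axes log) in endothelial-like cells, 1 point per library, filled for low and open for negative bins. The control IgG low libraries stand at 1960 and 1389 CPM for venous and 202 and 180 CPM for arterial genes, and the control IgG negative library at 519 and 663 CPM.

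Fibroblast-like cells differed most within a class, with 1665 of 11659 genes (14.3%), 632 higher (5.42%) and 1033 lower (8.86%). The bins drew on different clusters: the Coch-led cluster held 94.1% and 96.1% of these cells in the low libraries and 5.26% in the negative library, where the class had 76 cells. Tcf21 (ENSMUSG00000045680, GRCm38 chromosome 10, 22817281 to 22820174), a transcription factor of mesenchyme, stood at 650 and 513 CPM against 29.8 CPM (log2 difference 4.30, SE 0.72, adjusted p = 1.1e-04). Slc6a13 (ENSMUSG00000030108, chromosome 6, 121300227 to 121337733), a GABA and taurine carrier of leptomeningeal fibroblasts, stood at 55.4 and 35.4 CPM against 1932 CPM (-5.40, SE 0.47, adjusted p = 8.0e-09). For both genes the low libraries stood clear of the negative library. Gata6, another transcription factor, had 136 and 257 UMIs against 0, or at least 14.0-fold more with the negative library set at 3 UMIs. Nkain3 had 181 and 398 against 0, or at least 20.4-fold more, and Sult5a1, Glra3 and Car13 were at 0 in the negative library too. Aldh1a2, which makes retinoic acid in the meninges, stood at 24.8 and 6.99 CPM against 487 CPM (-4.98), and the growth factor gene Bmp7 at 9.12 and 8.39 CPM against 310 CPM (-5.11). Edn3, Fam180a, Cmbl, Epha3, Fbln2, Necab1 and Arhgap20 were lower too, at -5.71 to -4.87. All 20 genes named by the rule kept their call without either low library. Astrocyte markers in these cells summed to 659 and 598 CPM against 5137 CPM and pericyte markers to 791 and 591 CPM against 5033 CPM, and their part in the calls was not tested. Fcgrt did not pass (298 and 252 CPM against 251 CPM, 0.15, adjusted p = 0.84). Slc3a2 was lower (231 and 225 CPM against 462 CPM, -0.996, SE 0.27, adjusted p = 0.012), a call lost without low 2 (0.059).

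**Figure D5:**
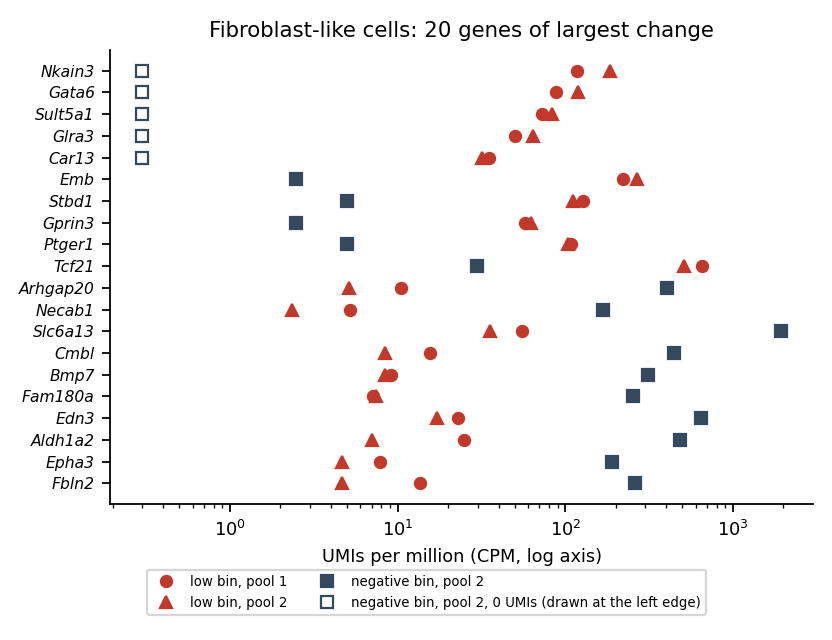
Level (CPM, log axis) in fibroblast-like cells of the 20 genes with the largest change, in the 2 low libraries (red) and the negative library (dark; open where it had 0 UMIs). The red points lie to the right for the upper 10 genes (Tcf21 at 650 and 513 against 29.8 CPM) and to the left for the lower 10 (Slc6a13 at 55.4 and 35.4 against 1932 CPM).

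In choroid plexus epithelial-like cells, 461 of 12636 genes differed (3.65%), 91 higher (0.720%) and 370 lower (2.93%). Ttr, the transthyretin that marks this epithelium, did not pass (190393 and 170551 CPM against 172346 CPM, 0.03, adjusted p = 0.98). The higher calls came to 53 without low 1 and to 49 in DESeq2. Of the 3325 genes tested that were at home in the class, 32 were higher and 0 lower. Htr2c, a serotonin receptor, stood at 1295 and 891 CPM against 375 CPM (1.50, SE 0.32, adjusted p = 0.0045), and Grm8, a glutamate receptor, at 69.4 and 43.0 CPM against 5.31 CPM (3.35, SE 0.47, adjusted p = 2.6e-05). Esrrg, Fras1, Frmpd4, Tbc1d2, Lmx1a, Nprl3 and Etl4 were higher as well, by 1.45 to 2.18, and Cdh18, a cadherin, had 137 and 104 UMIs against 1 (adjusted p = 0.0013), with the calls of Nprl3 and Etl4 lost without low 1. An Htr2c-rich cluster of deep cells, at 3.5 times the median depth of its libraries, held 27.2% and 12.7% of these cells in the low libraries and 2.08% in the negative library. In the other cluster alone 429 genes passed, 7 of them higher, and Htr2c stood at -0.17 (adjusted p = 0.90), while Tbc1d2 kept its call (1.29, adjusted p = 0.024) and Nprl3 (1.08, 0.36) and Fras1 (1.01, 0.50) did not pass. Astrocyte markers summed to 88.6 and 105 CPM against 1438 CPM, 10 of 10 lower, and their part in the lower calls was not tested.

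Border macrophage-like cells of the low and negative bins differed in 156 of 10328 genes (1.51%), 5 higher (0.0484%) and 151 lower (1.46%), and 84 of the lower genes had their highest level in astrocyte-like cells. Astrocyte markers summed to 31.2 and 96.1 CPM against 1677 CPM, and their part in the calls was not tested. The negative library had 42 cells of the class. Of the Fc gamma receptors and their shared chain, 0 of 5 passed, nor did Fcgrt. Fcer1g, the shared chain, stood at 2491 and 2666 CPM against 1735 CPM (0.54, SE 0.30, adjusted p = 0.54), and Fcgr1, the high-affinity receptor, at 220 and 204 CPM against 99.6 CPM (1.05, SE 0.53, adjusted p = 0.48). Fcgr2b, the inhibitory receptor, stood at 405 and 252 CPM against 414 CPM (-0.38, adjusted p = 0.79). Of 10 scavenger receptor genes and 15 lysosomal genes tested, 0 passed in each list, and likewise 0 of 7 MHC class II genes, although with the replicate block H2-Aa of that list (-0.91, adjusted p = 0.041) and the border macrophage marker Lyve1 (3.13, adjusted p = 0.041) passed. At 1.51% of all genes called, lists of 5 to 15 genes would hold few calls or none. In data simulated for this class, 4% of genes changed by 1 on the log2 scale were recovered. A missed threshold thus does not show that levels were alike. Ms4a7, a marker of border macrophages, was higher (772 and 1101 CPM against 283 CPM, 1.70, SE 0.43, adjusted p = 0.044), as was Acsl1 (1.76, adjusted p = 0.043). Cd209a and Itgax, markers of dendritic cells, were lower (Cd209a 53.7 and 14.1 CPM against 241 CPM, -3.03, SE 0.56, adjusted p = 0.0042; Itgax -2.66, adjusted p = 0.024). In the finer clustering the negative library held 14 monocyte or dendritic cell-like cells beside 10 of the Mrc1-rich and 16 of the MHC class II-led cluster, against 41 and 61 beside 137 and 155 and 79 and 176 in the low libraries. The makeup of the class and the level in its cells cannot be told apart for these genes. Without low 2 the calls of Ms4a7, Acsl1, Cd209a and Itgax were lost and 81 genes passed, without low 1 the call of Acsl1 was lost, and with the replicate block 338 passed. In a fit of control IgG libraries alone, 17 passed, all lower, and Ms4a7, Acsl1, Cd209a and Itgax were not among them (adjusted p 0.19 to 0.34).

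The few microglia-like cells of the low bin, 27 and 26, differed in 208 of 12483 genes (1.67%), 155 higher (1.24%) and 53 lower (0.425%). P2ry12, the purine receptor of resting microglia, stood at 1104 and 1008 CPM against 2304 CPM (-1.12, SE 0.26, adjusted p = 0.025), a call lost without either low library. Apoe, a lipid carrier raised in activated microglia and high in border macrophages, stood at 14286 and 10982 CPM against 919 CPM (3.78, SE 0.65, adjusted p = 0.0026). Both low libraries lay on the same side for these genes. Of 12 immediate early genes tested 5 rose, as did 5 of 11 interferon-stimulated and 3 of 11 activated microglia genes, and 0 of 5 Fc receptor genes passed. At 1.67% of all genes called, a list of 5 would hold few calls or none. Of the higher genes, 9 of 155 were at home in microglia, while 35 had their highest level in endothelial-like, 34 in B cell-like, 23 in neutrophil-like and 19 in border macrophage-like cells, and the part of RNA from those cells was not tested. The list counts rest on calls that were easily lost. In control IgG only the low and negative libraries held at least 20 cells of this class. The replicate block thus compared low 2 with the negative library, as did the fit without low 1, so these are not separate checks. Fos was lost without low 1 (adjusted p = 0.30), without low 2 (0.052) and with the replicate block (0.093), Isg15 without low 1 (0.16), and Axl without low 1 (0.30) and with the block (0.11). Of 25 called genes followed through these settings, 20 were lost without low 1, 13 without low 2 and 15 with the block. Tnf, an inflammatory cytokine, had 44 and 4 UMIs in the low libraries (458 and 38.4 CPM against 19.2 CPM, 3.65, adjusted p = 0.0061), and its call was lost without low 1 and with the replicate block (0.99, adjusted p = 0.77). Endothelial markers stood apart by library: they summed to 31.2 CPM in low 1, 3034 CPM in low 2 and 109 CPM in the negative library. Cldn5 had 0 UMIs in low 1 and 80 in low 2, and its call (4.46, adjusted p = 0.0028) was lost without low 2. Without low 1, 84 genes passed, 78 of them higher, and without low 2, 127, 104 of them higher, so that most of the lower calls were lost in each case. Under RLE size factors the higher share of calls moved from 74.5% to 86.5%.

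Pericyte-like cells, 34 and 68 in the low libraries, differed in 203 of 11823 genes (1.72%), 129 higher (1.09%) and 74 lower (0.626%), a count that fell to 11 without low 1 and to 6 without low 2 and rose to 825 with the replicate block. In control IgG only the low and negative libraries held at least 20 cells of this class. The block thus compared low 2 with the negative library, as did the fit without low 1, so it adds no separate check. Of the higher genes, 55 of 129 had their highest level in endothelial-like cells. Lipa and Arl2bp were the 2 higher genes at home in pericytes, and their calls were lost without either low library and in a fit of control IgG libraries alone. Endothelial markers summed to 20476 and 20916 CPM in the pericyte-like cells of the low libraries against 8578 CPM in the negative library, and their part in the calls was not tested. Ggt5, an enzyme of glutathione breakdown, was among the lower genes at home in pericytes (140 and 108 CPM against 313 CPM, -1.31, SE 0.28, adjusted p = 0.020), a call lost without either low library.

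Levels of the antibody-binding receptors in several classes are given as values, with no test between classes. In the low libraries Fcgrt stood at 648 and 508 CPM in endothelial-like cells, 544 and 379 CPM in pericyte-like cells (which held the endothelial RNA given above), 337 and 324 CPM in T or NK cell-like cells (where Tfrc, high in endothelium, stood at 337 and 324 CPM too), 298 and 252 CPM in fibroblast-like cells and 242 and 212 CPM in border macrophage-like cells. In choroid plexus epithelial-like cells, which rose in number, Fcgrt stood at 43.0 and 60.9 CPM. In astrocyte-like cells, which fell, it stood at 67.3 and 182 CPM in the low libraries, from 3 and 16 UMIs, and at 42.3 CPM in the negative library. Tfrc moved the same way in the astrocyte-like cells, at 157 and 386 CPM against 65.9 CPM, and the part of endothelial RNA in these Fcgrt levels was not tested. Fcer1g stood at 2491 and 2666 CPM in border macrophage-like cells and at 2916 and 2342 CPM in microglia-like cells of the low libraries, against 1.10 and 1.27 CPM in endothelial-like cells. In neutrophil-like cells it stood at 1871 and 1170 CPM and in B cell-like cells at 1578 and 1283 CPM.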

How the data were processed

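Per the labels' protocols, whole-brain cells were sorted by AF647 and prepared as droplet single-cell RNA-seq libraries. The deposited matrix holds UMI counts per gene and barcode that the authors made with Cell Ranger 7.1.0 and Seurat (versions 4 and 5) on mm10, per the submitters' processing notes. Barcodes were filtered as in the report, doublets called with Scrublet in scanpy 1.11.5, and cells clustered (2000 variable genes, 50 components, Leiden resolution 1) and named where at least 3 markers and at least 0.5 of a list were detected, meaning in 0.05 of cells and at 0.25 of the highest cluster's level, with no second list close behind; a bar on names for clusters led by endocrine genes was added after seeing the data. Scrublet's automatic threshold was replaced in libraries of more than 5000 barcodes where it called below 0.5% or above 25%. The 94th percentile of the score was used there, which occurred only in vehicle libraries. Cell numbers per class were tested with edgeR 4.0.16 quasi-likelihood fits over all 23 libraries, or the 7 control IgG libraries for fine clusters. UMI counts summed per class and library were tested likewise over those of the 23 libraries with at least 20 cells of the class. Both used Benjamini-Hochberg adjustment at 0.05. A permutation of 2 against 1 libraries cannot go below p = 0.33. Named genes were the 10 with the largest change in each direction among called own-class genes whose mean log2 CPM reached 5, plus members of the marker and gene lists. Members and lists were chosen with earlier results of these data known.

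Pool numbers pair bins, since the labels say that a pool's bins share animals; same-numbered deviations correlated at 0.107 to 0.978 over 15 pairs of bins (5646 genes). In data simulated for endothelial-like cells (14436 genes run), 100 genes were changed by 1 and 100 by 2 on the log2 scale. Of these, 60% and 100% were recovered. In data simulated for border macrophage-like cells (9465 genes run), with as many genes changed, the shares were 4% and 56%. The changed genes were drawn only from those at or above a set mean CPM, so recovery of genes at lower levels was not tested.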

Additional observations from a re-analysis of the deposited data

Results flagged for a closer look

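Each value here is the low minus negative log2 difference in control IgG minus the same difference in a vehicle arm, and each is given because that difference between treatments passed its edgeR test. Cell numbers per class come first. Against ATV-TfR the values were 5.75 for fibroblast-like, 5.72 for border macrophage-like, 3.62 for B cell-like, 3.45 for choroid plexus epithelial-like, 2.82 for T or NK cell-like, 2.42 for pericyte-like and 0.85 for endothelial-like cells. They were -8.13 for astrocyte-like and -2.08 for oligodendrocyte-like cells. In male cells alone the B cell-like value against ATV-TfR changed sign, as given below. The T or NK cell-like class also held endothelial markers, as given above. Against ATV-CD98hc the values were 4.12 for border macrophage-like, 3.49 for fibroblast-like, 3.24 for neutrophil-like, 3.18 for choroid plexus epithelial-like, 2.86 for B cell-like, 2.50 for smooth muscle-like and 1.65 for pericyte-like cells. They were -6.63 for astrocyte-like, -3.58 for microglia-like and -1.76 for endothelial-like cells. Without low 1 the B cell-like and neutrophil-like differences from ATV-CD98hc were lost (adjusted p = 0.058 for both in edgeR). Without low 2 the T or NK cell-like difference from ATV-TfR (2.40, adjusted p = 0.053) and the smooth muscle-like difference from ATV-CD98hc (1.94, adjusted p = 0.13) were lost in edgeR.

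In endothelial-like cells, the venous genes that differed from ATV-TfR were Vcam1 (3.46), Slc38a5 (3.36), Il1r1 (3.04), Vwf (2.50), Nr2f2 (2.31) and Ctsc (1.98). The arterial genes were Gkn3 (-3.39), Fbln5 (-3.14), Stmn2 (-3.05), Sema3g (-2.80), Hey1 (-2.70), Bmx (-2.58), Alpl (-2.23), Mgp (-1.93) and Vegfc (-1.20). Of the capillary genes, Car4 (1.94) and Kdr (1.30) differed from ATV-TfR. Against ATV-CD98hc the venous genes were Vcam1 (4.79), Il1r1 (3.10) and Vwf (3.01), and the arterial genes Stmn2 (-1.41) and Bmx (-1.27). Without low 2 the Fbln5, Mgp and Vegfc differences from ATV-TfR and the Stmn2 and Bmx differences from ATV-CD98hc were lost in edgeR, and without low 1 those of Fbln5 and Bmx. These gene tests were added after the values were seen.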

How the results depend on the processing

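Between low and negative bins of control IgG, 10 to 12 classes passed under the alternatives run, and 0 of those called changed direction. Leaving out 1 low library gave 368 to 448 calls in endothelial-like, 81 to 131 in border macrophage-like, 84 to 127 in microglia-like and 6 to 11 in pericyte-like cells, and 197 to 263 for the endothelial difference from ATV-CD98hc. With the replicate block, which pairs bins of a pool, calls came to 1034 in endothelial-like, 338 in border macrophage-like and 825 in pericyte-like cells and to 847 and 493 for the endothelial differences from ATV-TfR and ATV-CD98hc. The block also brought the ependymal-like difference from both vehicles (2.29 and 1.85), the smooth muscle-like one from ATV-TfR (1.73) and the oligodendrocyte-like one from ATV-CD98hc (-1.27) past the threshold. Fits of control IgG libraries alone gave 17 calls in border macrophage-like, 274 in choroid plexus epithelial-like, 43 in microglia-like (2970 genes tested) and 375 in pericyte-like cells. In those fits only the low and negative libraries held at least 20 microglia-like or pericyte-like cells. For the same reason the replicate block compared low 2 with the negative library in both classes, as did the fits without low 1. DESeq2 gave 468 in microglia-like and 326 in pericyte-like cells. No filter on low counts gave 383, 438 and 542 in border macrophage-, microglia- and pericyte-like cells, where more genes were tested, and an average log2 CPM of at least 4 gave 133 in endothelial- and 195 in choroid plexus epithelial-like cells, where fewer were. Male cells alone gave 241, 673 and 284 in endothelial-, fibroblast- and choroid plexus epithelial-like cells, and female cells alone gave 287 and 869 in the former pair, each from fewer cells. The largest endothelial-like cluster alone gave 33. Reversed values in the largest cluster of the class were Etl4 -0.071 and Htr2c -0.17 in choroid plexus epithelial-like cells, and Efnb2 0.36, Gkn3 0.52, Mgp 1.37 and Stmn2 0.61 in endothelial-like cells. In male cells Fbln5 was reversed at 0.33 in endothelial-like cells, and so was the B cell-like difference from ATV-TfR at -0.43. Leaving out 1 low library put Cldn5 at -8.30 to 5.36 and Itm2a at -7.04 to 6.17 in microglia-like cells, both reversed without low 2. Causes were not tested. RLE factors moved the median of all genes in microglia-like cells by 0.15. The single negative library could not be left out, and some male-only, female-only and largest-cluster fits had too few cells and were not run.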

Other observations

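Male and female cells of a pool could be separated by sex-linked genes for most barcodes, and each sex of a pool is 1 animal. Choroid plexus epithelial-like cells made up 19.1% of male and 7.45% of female cells in low 1 and 10.9% and 2.49% in low 2. In the negative library the shares were 1.10% and 0.218%. In all kept cells the class held 17.3%, 11.6% and 1.28%, in low 2 and the negative library above the share in either sex. Cells without a sex call thus held more of this class there, and they are not part of this comparison. Among cells with a sex call, the male share was higher in all 3 libraries. Endothelial-like cells went the other way in both low libraries, with 44.8% of male and 54.3% of female cells in low 1 and 59.6% and 65.0% in low 2. In the negative library the endothelial-like shares were 17.8% and 17.6%.

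Tfrc stood at 563 CPM in male and 464 CPM in female endothelial-like cells of low 1, at 667 and 569 CPM in low 2 and at 612 and 470 CPM in the negative library. Vcam1 stood at 125 CPM in male and 136 CPM in female endothelial-like cells of low 1, at 54.5 and 139 CPM in low 2 and at 10.0 and 10.4 CPM in the negative library.

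A small unnamed fine cluster led by Prg4, Igfbp6 and Slc47a1 held 33 and 44 cells in the low libraries and 5 in the negative library (log2 difference 4.76, SE 0.83, edgeR adjusted p = 0.0042). Another unnamed fine cluster led by Chga, Cga and Tshb, genes of pituitary hormone cells, held 8 cells in low 1, 0 in low 2 and 0 in the negative library, and did not pass.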
